A study of Mus musculus with 12 samples.

Results

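The antigen receptor of T cells signals through the CD3 chains, and the 10 genes described here encode that signalling complex and the surface proteins and kinase that work beside it. They are Cd3d, Cd3e, Cd3g and Cd247 (the CD3 delta, epsilon, gamma and zeta chains), Cd8a and Cd8b1 (the CD8 alpha and beta chains), Lck, Cd2, Cd5 and Cd6. They were chosen by gene symbol, with earlier results of these data known, so counts of members set beside shares over all genes are descriptions. All 10 were found among 25655 listed genes and passed the filter on low values, which left 11417 genes for testing. They were measured in splenic CD8 T cells of female C57BL/6 animals, in 4 groups of 3 libraries: Ezh2-deficient cells (Ezh2 KO, here KO) and wild-type cells (WT) at day 5, and KO and WT cells at day 3. Ezh2 is the histone methyltransferase of Polycomb complex PRC2, which sets the silencing mark H3K27me3. The title of the series poses the question of how loss of Ezh2 bears on short-lived effector cells and on the response to tumours. All 4 groups started as naive CD44-low CD62L-high cells, were activated for 2 days with plate-bound anti-TCR-β (3 µg/ml), anti-CD28 (1 µg/ml) and IL-2 (10 ng/ml), and were then kept with IL-2. The labels do not give the age of the mice, how or in which cells Ezh2 was deleted, or whether each library of a group is its own animal or culture. A p-value below is thus set only against the variation among these libraries, which may be technical.

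In the T cell receptor complex, the alpha and beta chains bind peptide on MHC and have almost no signalling tail, and the CD3 chains carry the activation motifs (ITAMs) that the kinase Lck phosphorylates. CD8 binds MHC class I and brings Lck to the receptor. CD2 is an adhesion and costimulatory receptor, whereas CD5 and CD6 are scavenger receptor family proteins that mainly dampen the receptor signal, and CD5 is known to rise with the strength of that signal.

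Levels are reads of a gene per 1000000 gene-assigned reads (CPM), from tags at the 3′ ends of messenger RNA. Library totals ran from 1545391 to 2011247 reads, which makes 1 read equal to 0.497 to 0.647 CPM, and 11257 to 11973 genes had a read. Fold changes are on the scale of log2(CPM + 1), which understates those of low genes, and were fitted with limma over all 11417 genes. A gene is called at an adjusted p under 0.05. The second KO library at day 5 stood apart. Its chi-square per degree of freedom against the other KO day 5 libraries was 5.38 and 5.21, against 1.32 to 2.43 for all other pairs of libraries within a group. It held 283 CPM of Ezh2, against 159 and 161 CPM in the other KO day 5 libraries and 306, 319 and 316 CPM in WT day 5 libraries. At day 3, Ezh2 stood at 377, 334 and 311 CPM in KO libraries and at 357, 374 and 409 CPM in WT libraries. The labels do not name the deleted part of the gene, so a 3′ tag does not check the genotype, and results that rest on the second KO day 5 library are given with and without it. The receptor alpha and beta chains could not be measured, since all 494 immunoglobulin and receptor chain genes in the tables stand at 0 reads.

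The CD3 chains stood higher in KO than in WT cells at day 5 and close to WT at day 3, while Cd2, Cd5 and Cd6 were lowest in KO cells at day 3. In KO against WT cells at day 5, 5 members rose (Cd3g, Cd3e, Cd3d, Cd247 and Cd8a), where 16.5% of all genes tested were called higher, and 2 fell (Cd5 and Cd6), where 22.9% were called lower. At day 3, 0 members rose, where 11.2% of genes were called higher, and 5 fell (Cd6, Cd5, Cd2, Cd8b1 and Cd8a), where 7.23% were called lower. The members' median log2 fold change was 0.25 at day 5, against -0.08 over all genes, and -0.26 at day 3, against -0.01 over all genes. Scaling by median of ratios or by TMM changed the share of higher calls among all calls at day 5, which was 41.9% as reported (1885 higher and 2616 lower), 52.3% by median of ratios (2301 and 2098) and 51.0% by TMM (2242 and 2153).

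**Figure D1:**
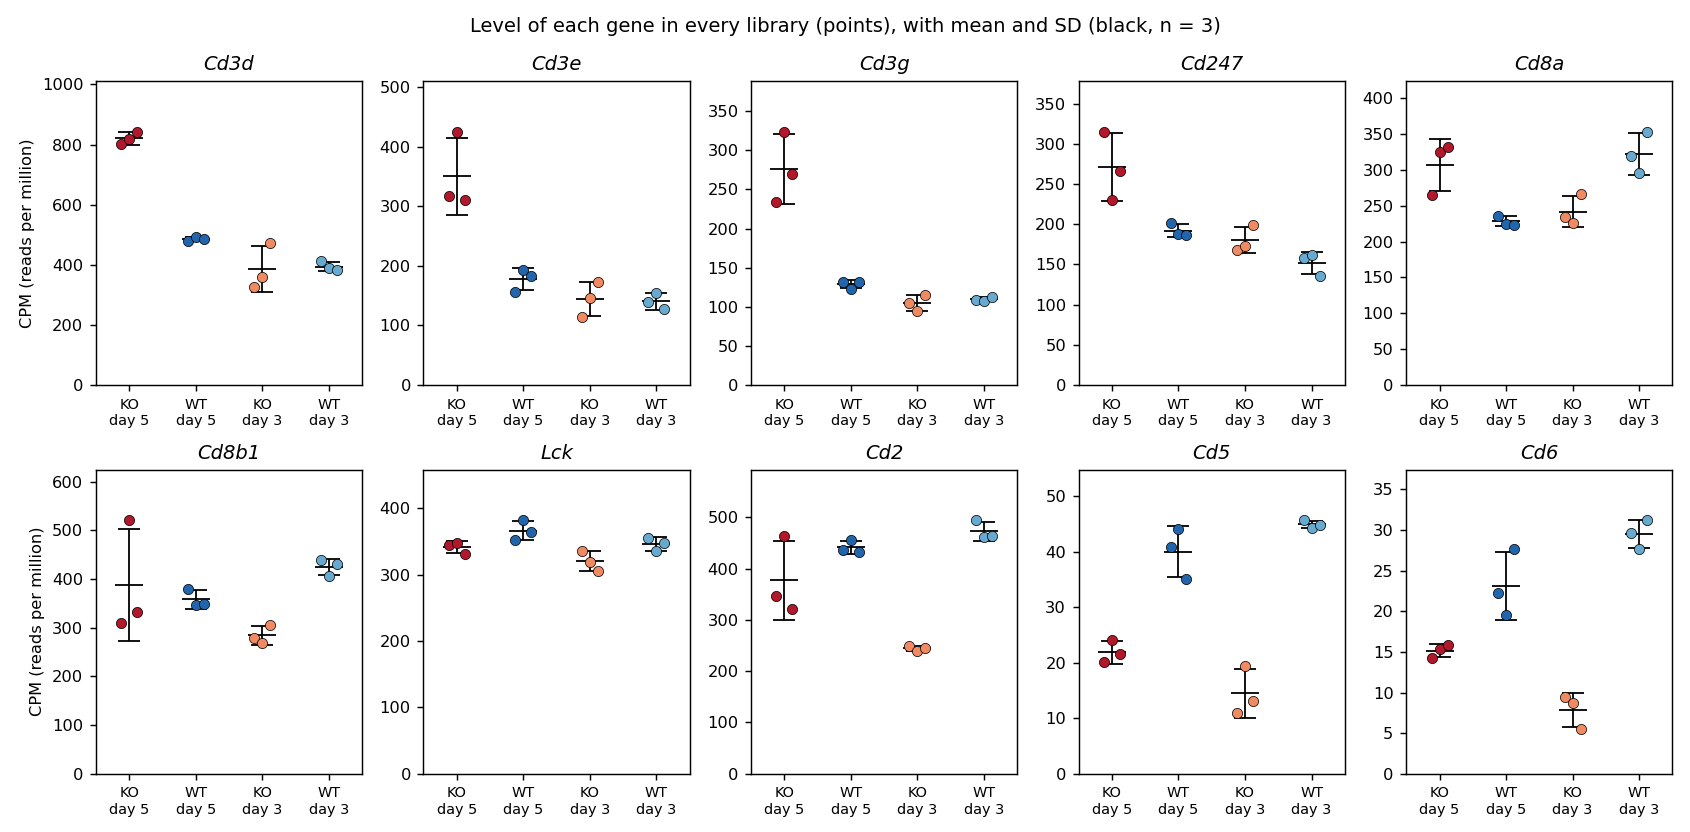
Level of the 10 genes in CPM (vertical axis, from 0) in every library (points, left to right replicates 1 to 3) of KO and WT cells at day 5 and day 3, with group mean and SD (black, n = 3). The CD3 chains stand highest in KO day 5 libraries, and Cd2, Cd5 and Cd6 stand lowest in KO day 3 libraries.

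Cd3d, Cd3e and Cd3g encode the small invariant chains that pair as CD3 epsilon with delta and CD3 epsilon with gamma, and they lie together on mouse chromosome 9. In the GENCODE M21 annotation of GRCm38, Cd3d runs from chr9:44981786-44987339 on the plus strand, Cd3g from chr9:44969572-44980431 and Cd3e from chr9:44998740-45009627, both on the minus strand. The starts of Cd3d and Cd3g are 1355 bases apart on opposite strands, and those of Cd3d and Cd3e 27841 bases apart. Because these neighbours changed together, the 250 bases before each start are shown, 5′ to 3′ in the gene's direction, from RefSeq on GRCm38.p6 (chr9:44981536-44981785, plus strand, for Cd3d, chr9:45009612-45009861, minus strand, for Cd3e and chr9:44980432-44980681, minus strand, for Cd3g). Capitals mark GGAA on either strand, the core of the ETS factor motif.
Cd3d: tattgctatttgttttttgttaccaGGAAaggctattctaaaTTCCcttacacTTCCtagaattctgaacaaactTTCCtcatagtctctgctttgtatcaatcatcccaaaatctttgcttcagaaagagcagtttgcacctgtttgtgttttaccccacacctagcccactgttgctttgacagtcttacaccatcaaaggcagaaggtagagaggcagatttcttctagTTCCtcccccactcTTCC
Cd3e: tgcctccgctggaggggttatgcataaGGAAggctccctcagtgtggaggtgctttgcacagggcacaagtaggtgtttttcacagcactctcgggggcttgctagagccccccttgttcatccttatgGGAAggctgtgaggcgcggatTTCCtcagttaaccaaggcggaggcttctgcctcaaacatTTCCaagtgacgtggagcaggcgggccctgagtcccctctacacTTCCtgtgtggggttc
Cd3g: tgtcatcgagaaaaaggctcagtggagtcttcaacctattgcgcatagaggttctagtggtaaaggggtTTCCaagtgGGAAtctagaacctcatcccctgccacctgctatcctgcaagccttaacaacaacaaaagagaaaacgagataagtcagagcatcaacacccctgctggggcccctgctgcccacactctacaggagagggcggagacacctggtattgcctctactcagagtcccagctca
The ETS core GGAA was found 6 times before Cd3d, 5 times before Cd3e and 2 times before Cd3g, against a median of 3 over 32851 windows of the same length, of which 93.45% held it. The E-box CANNTG was found 1 time, 1 time and 3 times in these windows in the same order, and 66.22% of all windows held it. The letters TATAAA (12.37% of all windows) and TGTGGT, a RUNX motif (14.05% of all windows), were in none of the 3 windows on either strand. CG was found 0 times before Cd3d, 7 times before Cd3e and 4 times before Cd3g, against a median of 6, and 92.13% of all windows held it. These matches are descriptions of letters and say nothing about factors bound there.

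Cd3g, the gamma chain, had the largest difference of the 4 CD3 chains between the genotypes at day 5. It held 234, 324 and 269.8 CPM in KO day 5 libraries, against 132, 123 and 131 CPM in WT day 5 libraries, and the groups did not overlap. The log2 fold change was 1.08 ± 0.11 (SE, adjusted p 6.6e-08), or 2.15 times the WT mean. At day 3 its level was 104, 94.6 and 115 CPM in KO libraries, against 108, 107 and 112 CPM in WT libraries. These day 3 groups overlapped, and the difference of -0.07 was not called (adjusted p 0.722, 95% interval -0.29 to 0.16).

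Cd3e encodes the epsilon chain, which pairs with both the delta and the gamma chain. It held 316, 425 and 309.6 CPM in KO day 5 libraries, against 157, 192 and 184 CPM in WT day 5 libraries. Every KO library lay above every WT library, and the log2 fold change was 0.97 ± 0.14 (adjusted p 5.85e-06), or 1.97 times. The second KO library was the highest, and without it the difference was 0.82 (adjusted p 3.8e-06). At day 3 Cd3e held 115, 145 and 172 CPM in KO libraries, against 139, 155 and 127 CPM in WT libraries, which overlapped (log2 fold change 0.02, adjusted p 0.923).

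Cd3d, the delta chain, was also higher in every KO library at day 5. It held 800.4, 819 and 843 CPM in KO day 5 libraries, against 478, 494 and 485 CPM in WT day 5 libraries. The difference of 0.76 ± 0.10 on the log2 scale (adjusted p 1.9e-06, 1.69 times) was 0.76 also without the second KO library. At day 3 its level was 325, 360.2 and 471 CPM in KO libraries, against 412, 388 and 382 CPM in WT libraries, where the KO libraries spread to both sides of WT (-0.05, adjusted p 0.776).

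Cd247 encodes the zeta chain, which carries most ITAMs of the complex and lies apart from the other CD3 genes, on chromosome 1 (165788681 to 165877277, plus strand). It held 315, 231 and 267 CPM in KO day 5 libraries, against 202, 188 and 186 CPM in WT day 5 libraries, with no overlap. The log2 fold change was 0.48 ± 0.11 (adjusted p 0.00108, 1.41 times), and 0.59 without the second KO library, which was the lowest of the KO libraries. At day 3 its level was 169, 173 and 199 CPM in KO libraries, against 158, 162 and 136 CPM in WT libraries. These day 3 groups did not overlap either, but the difference of 0.24 ± 0.11 was not called (adjusted p 0.122), except without the second KO day 5 library (adjusted p 0.0413). Cd247 overlaps Pou2f1 on the opposite strand, which had 1461 reads in all, and the sources used here do not say whether counting used strand, so reads of the 2 may be mixed.

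The share of each chain in the summed CPM of the 4 CD3 chains is described without a test. Cd3g made up 14.1% to 18.0% in KO day 5 libraries, against 12.3% to 13.6% in WT day 5 libraries, with no overlap. Cd247 made up 12.8% to 18.9% in KO, against 18.9% to 20.8% in WT, and these ranges overlapped slightly. The shares of Cd3d (45.5% to 49.9% in KO, against 49.2% to 49.5% in WT) and Cd3e (18.3% to 23.6% in KO, against 16.2% to 19.3% in WT) overlapped. The second KO day 5 library gave the lowest KO shares of Cd247 and Cd3d and the highest of Cd3g and Cd3e. The summed CPM of the 4 chains averaged 1718 in KO and 984 in WT libraries at day 5, and 814 in KO and 796 in WT libraries at day 3. In bulk RNA, a change in the number of cells of a kind and a change in RNA per cell cannot be told apart.

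Cd8a and Cd8b1 lie 35932 bases apart on the plus strand of chromosome 6 (71373427 to 71379173 and 71322788 to 71337494). Cd8a encodes the alpha chain, which can also form a homodimer. It held 265, 324 and 332 CPM in KO day 5 libraries, against 236, 225 and 223 CPM in WT day 5 libraries, a log2 difference of 0.42 ± 0.10 (adjusted p 0.00136). At day 3 the order was turned round, with 234, 226 and 266 CPM in KO libraries, against 319, 295 and 353 CPM in WT libraries (-0.41 ± 0.10, adjusted p 0.00419). Neither pair of groups overlapped, and Cd8a was the only member called in opposite directions at the days.
Its window before the start is shown because of this turn (RefSeq, GRCm38.p6, chr6:71373177-71373426, plus strand, capitals as above).
Cd8a: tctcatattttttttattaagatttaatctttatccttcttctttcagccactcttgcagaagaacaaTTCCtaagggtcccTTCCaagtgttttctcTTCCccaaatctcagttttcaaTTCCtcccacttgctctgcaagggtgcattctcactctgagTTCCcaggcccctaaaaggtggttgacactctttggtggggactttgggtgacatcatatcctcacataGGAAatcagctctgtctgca
This window held GGAA 6 times, a count reached by 8.69% of all windows, CANNTG 2 times and CG 0 times, as 7.87% of all windows do. TATAAA and TGTGGT were not found in it.

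Cd8b1 encodes the beta chain, which makes CD8 a more effective coreceptor. It held 278, 269 and 306 CPM in KO day 3 libraries, against 438, 405 and 429.9 CPM in WT day 3 libraries. All KO libraries lay below all WT libraries, with a log2 fold change of -0.58 ± 0.13 (adjusted p 0.00261, 1.49-fold lower). At day 5 it held 311, 520.5 and 332 CPM in KO libraries, against 380.4, 346 and 348 CPM in WT libraries. The second KO library lay above all WT libraries and the other KO libraries below them, so the difference was 0.08 (adjusted p 0.676) with that library and -0.16 (adjusted p 0.104) without it. Under moderation without a trend, the falls of Cd8a and Cd8b1 at day 3 missed the threshold (adjusted p 0.0517 and 0.0531).

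The ratio of Cd8a to Cd8b1 CPM within a library averaged 0.826 ± 0.190 in KO day 5 libraries and 0.637 ± 0.0153 in WT day 5 libraries (SD, n = 3 each). The KO day 5 mean was 0.927 without the second library, whose ratio of 0.623 lay inside the WT range of 0.621 to 0.651. At day 3 the ratio averaged 0.849 ± 0.0160 in KO libraries and 0.759 ± 0.0541 in WT libraries, and these groups did not overlap. The ratio is described without a test.

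**Figure D2:**
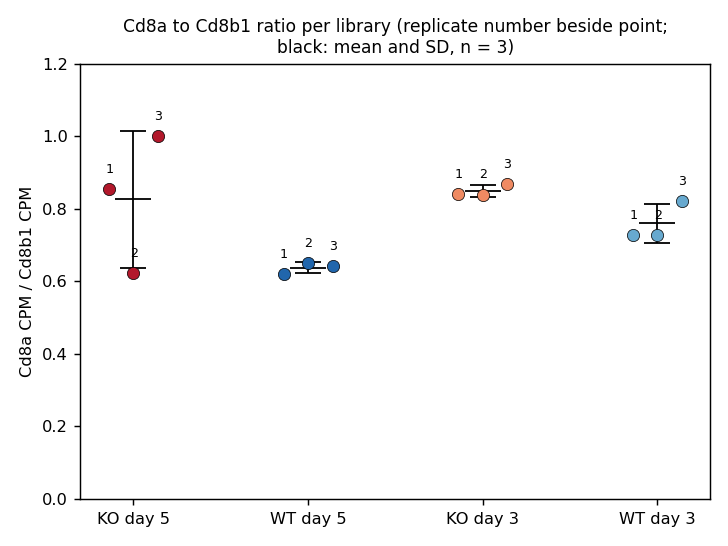
Ratio of Cd8a to Cd8b1 CPM (vertical axis, no unit) per library of KO and WT cells at day 5 and day 3, with replicate number beside each point and group mean and SD in black (n = 3). The ratio ranges from 0.623 to 1.00 in KO day 5 libraries and from 0.621 to 0.651 in WT day 5 libraries.

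Lck is the kinase that CD8 carries and that phosphorylates the CD3 ITAMs, encoded on chromosome 4 (129548344 to 129573641, minus strand). Its groups lay close together. Its level was 345, 348 and 331 CPM in KO day 5 libraries, against 353, 382 and 364 CPM in WT day 5 libraries. It was 336, 319 and 306 CPM in KO day 3 libraries, against 355, 335 and 347 CPM in WT day 3 libraries. The KO day 5 libraries lay just below WT without overlap, the day 3 groups overlapped, and neither difference was called (-0.10, adjusted p 0.293, 95% interval -0.26 to 0.05 at day 5, and -0.11, adjusted p 0.325, 95% interval -0.26 to 0.04 at day 3).

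Cd2 encodes the adhesion receptor that binds CD48 in the mouse and lies on chromosome 3 (101275899 to 101287939, minus strand). It held 249, 239.6 and 244 CPM in KO day 3 libraries, against 494, 461 and 463 CPM in WT day 3 libraries. The groups were far apart and tight, with a log2 fold change of -0.95 ± 0.10 (adjusted p 4.65e-07, 1.93-fold lower). At day 5 it held 346, 464 and 320.3 CPM in KO libraries, against 436, 455 and 433 CPM in WT libraries. The second KO library lay above all WT libraries and the other KO libraries below them, and the difference of -0.25 was not called (adjusted p 0.0554). Without that library Cd2 fell at day 5 also (-0.41, adjusted p 2.81e-05).

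Cd5 and Cd6 are neighbours on the minus strand of chromosome 19, 50338 bases apart (10717116 to 10739002 and 10789341 to 10830058), and had the steepest falls of the members. Cd5 held 10.9, 19.5 and 13.1 CPM in KO day 3 libraries, against 45.6, 44.3 and 44.8 CPM in WT day 3 libraries. No library overlapped, and the log2 fold change was -1.60 ± 0.19 (adjusted p 2.67e-06, 3.09-fold lower). At day 5 it held 20.1, 24.0 and 21.5 CPM in KO libraries, against 40.9, 44.0 and 35.0 CPM in WT libraries (-0.84 ± 0.19, adjusted p 0.00126, 1.83-fold lower). The day 5 groups were also separate, with the KO libraries nearer to WT than at day 3. These levels rest on 22 to 39 reads in KO libraries and 62 to 80 reads in WT libraries.
The window before Cd5 is shown as that of a gene that fell at both days (RefSeq, GRCm38.p6, chr19:10738975-10739224, minus strand, capitals as above).
Cd5: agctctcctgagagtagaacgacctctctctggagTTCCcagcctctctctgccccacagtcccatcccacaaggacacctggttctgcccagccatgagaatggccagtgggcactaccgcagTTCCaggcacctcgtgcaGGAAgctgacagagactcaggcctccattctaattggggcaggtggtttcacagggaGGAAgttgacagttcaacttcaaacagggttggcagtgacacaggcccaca
It held GGAA 4 times, CANNTG 2 times and CG 3 times, and TATAAA and TGTGGT were not found in it.

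Cd6, which binds ALCAM, held 9.45, 8.65 and 5.47 CPM in KO day 3 libraries, against 29.6, 27.7 and 31.2 CPM in WT day 3 libraries. Every KO library lay below every WT library, with a log2 fold change of -1.81 ± 0.22 (adjusted p 4.41e-06, 3.76-fold lower). Of all other genes tested at day 3, 9 had a lower fold change than Cd6, 17 than Cd5 and 198 than Cd2. At day 5 Cd6 held 14.2, 15.4 and 15.8 CPM in KO libraries, against 22.2, 19.5 and 27.7 CPM in WT libraries. The fall of -0.57 ± 0.22 at day 5 stood at the threshold (adjusted p 0.0486) and was lost in 17 of 25 alternatives (adjusted p up to 0.228). Among them were leaving out any of 8 libraries in turn (0.0586 to 0.196), the replicate block (0.0614), every other scaling tried, edgeR and DESeq2. Cd6 rests on 10 to 25 reads in KO libraries and 35 to 55 reads in WT libraries.

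**Figure D3:**
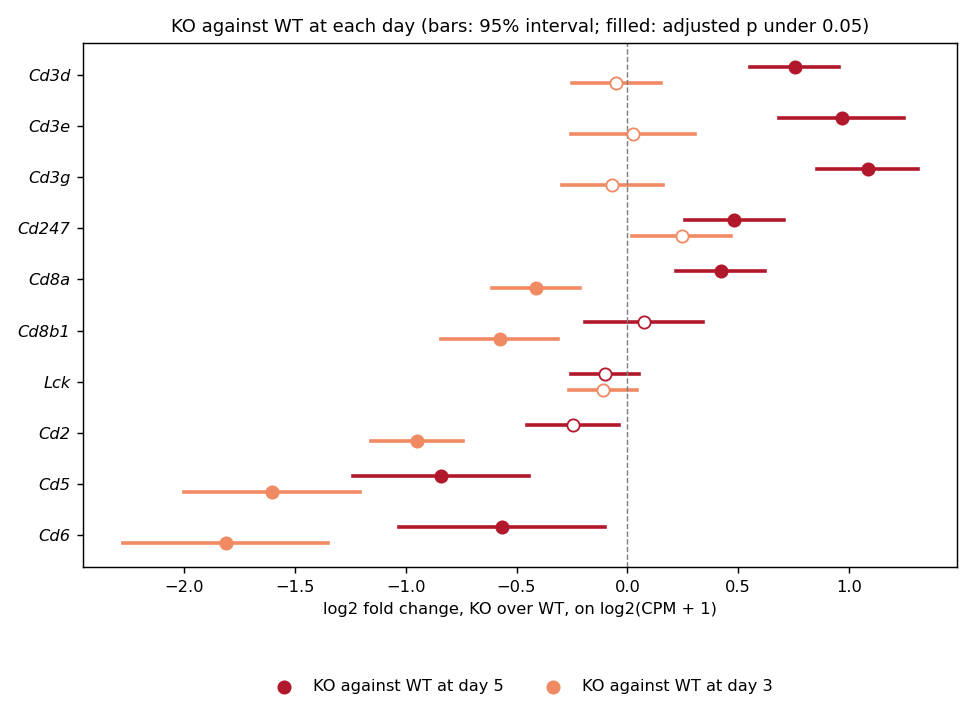
Log2 fold change of KO over WT on log2(CPM + 1) (horizontal axis) for each gene at day 5 (dark) and day 3 (light), with 95% interval (bars) and filled points where the adjusted p was under 0.05. The 4 CD3 chains lie to the right of 0 at day 5, and Cd6 and Cd5 have the lowest values at day 3.

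Whether the genotype difference itself changed between the days was tested as the interaction, the KO over WT difference at day 5 minus that at day 3. It was called positive for 7 members, where 4.01% of all genes were called positive, and negative for 0 members, where 8.85% were called negative. The members' median was 0.78, against -0.11 over all genes. Positive calls were 31.2% of all calls as reported (458 positive and 1010 negative), 45.4% by median of ratios (617 and 742) and 41.6% by TMM (571 and 801). The 7 members were Cd6 (1.25 ± 0.32, adjusted p 0.0108), Cd3g (1.15 ± 0.15, adjusted p 2.81e-05), Cd3e (0.94 ± 0.19, adjusted p 0.00194), Cd8a (0.83 ± 0.14, adjusted p 0.000255), Cd3d (0.81 ± 0.14, adjusted p 0.00038), Cd2 (0.70 ± 0.14, adjusted p 0.00181) and Cd8b1 (0.65 ± 0.18, adjusted p 0.0183). They moved in different ways: the 3 CD3 genes of chromosome 9 went up in KO from near the WT level, Cd8a crossed from below to above WT, and Cd2 and Cd6 came closer to WT from below. Cd5 had a positive value of 0.76 ± 0.27 that was not called (adjusted p 0.0672), but was called under median-of-ratios, TMM and quantile scaling (adjusted p 0.04, 0.0452 and 0.0497) and without the second KO day 3 library (adjusted p 0.0164). Cd247 (0.24, 95% interval -0.08 to 0.55) and Lck (0.01, 95% interval -0.21 to 0.23) were not called. Without the second KO day 5 library the same 7 members were called, with Cd8b1 at 0.42 (adjusted p 0.0041). Cd8b1 lost its call without the second KO day 3 library (adjusted p 0.0575), with a robust prior (0.0535) and with no trend in the moderation (0.14), and Cd2 with no trend (0.0502).

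Within the KO cells, 9 members rose at day 5 against day 3, where 15.4% of genes were called higher, and 0 fell, where 19.7% were called lower. The members' median log2 change in KO was 0.60, against -0.04 over all genes. Cd3g (1.38, adjusted p 2.75e-09), Cd3e (1.28, adjusted p 1.75e-07) and Cd3d (1.11, adjusted p 1.28e-08) rose most. Of all other genes, 293 had a higher fold change than Cd3g, 383 than Cd3e and 562 than Cd3d in that comparison. Cd6 rose by 0.90 (adjusted p 0.00323), Cd2 by 0.60 (adjusted p 5.77e-05) and Cd247 by 0.58 (adjusted p 0.000213). Cd5 (0.59, adjusted p 0.0186), Cd8b1 (0.41, adjusted p 0.0159) and Cd8a (0.34, adjusted p 0.00857) also rose. These last 3 calls were the least stable. Cd5 lost its call without KO day 3 library 1 or 3 or KO day 5 library 2 (adjusted p 0.115, 0.0576 and 0.0503), by DESeq2 (0.0653) and when the fit held the KO libraries alone (0.0824). Cd8b1 lost it without KO day 3 library 1 or 2 or KO day 5 library 2 (0.0526, 0.0691 and 0.0746), in the fit of KO libraries alone (0.0728) and with no trend (0.103). Cd8a lost it without the second KO day 3 library (0.051) and with no trend (0.0615). Lck, at 0.09 (adjusted p 0.369), was the member that was not called.

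Within the WT cells, 2 members rose at day 5 against day 3, where 7.17% of genes were called higher, and 1 fell, where 3.77% were called lower. The members' median was -0.01, against 0.05 over all genes. Higher calls were 65.6% of all calls as reported (819 higher and 430 lower), 55.5% by median of ratios (678 and 543) and 54.8% by TMM (667 and 549). Cd8a fell by 0.49 on the log2 scale (adjusted p 0.0014), and its WT libraries at the days did not overlap. Cd3d (0.30, adjusted p 0.0488) and Cd247 (0.34, adjusted p 0.0454) stood at the threshold, and each lost its call when any WT library was left out and under 7 or more of the other settings tried. Without the second KO day 5 library, which enters the shared spread, both kept their calls (adjusted p 0.0142 and 0.00748). Cd3e (0.34, adjusted p 0.0331) and Cd8b1 (-0.25, adjusted p 0.0123) were then called too, which made 5 members. The groups of both day comparisons also enter the genotype comparisons, so the values are given side by side and are no separate support.

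**Figure D4:**
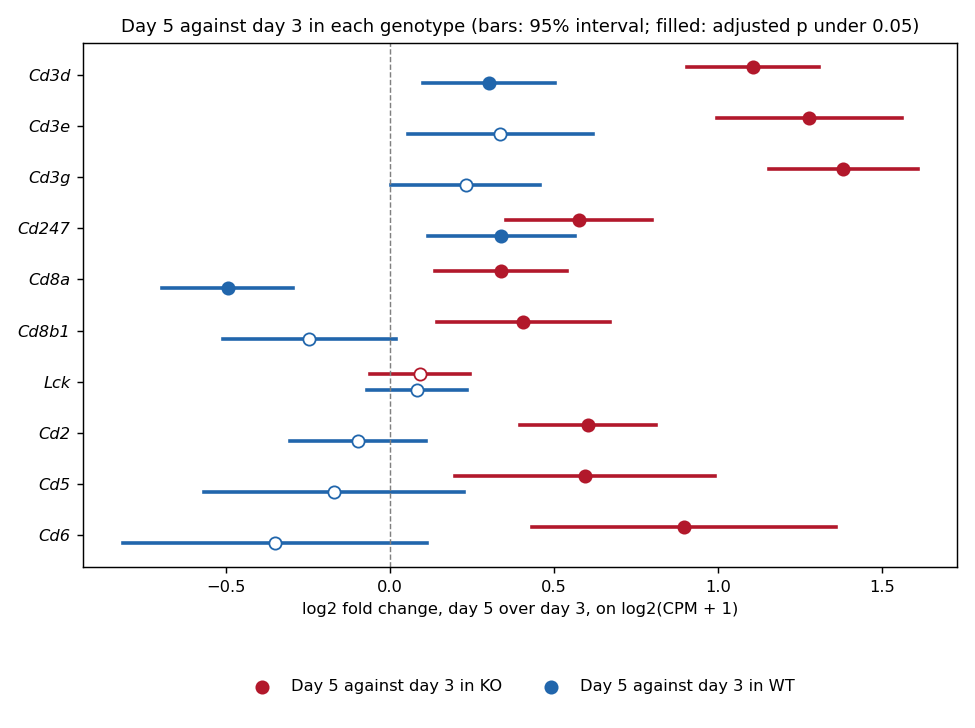
Log2 fold change of day 5 over day 3 on log2(CPM + 1) (horizontal axis) for each gene in KO (red) and WT cells (blue), with 95% interval (bars) and filled points where the adjusted p was under 0.05. All genes but Lck have filled points above 0 in KO cells, and Cd8a lies at -0.49 in WT cells.

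The order of the 4 group means differed between the members. Cd3d, Cd3e, Cd3g and Cd247 were highest in KO day 5 libraries, followed by WT day 5 libraries, with no overlap between these groups. The day 3 groups of Cd3d, Cd3e and Cd3g overlapped each other. Cd2, Cd5 and Cd6 had the order WT day 3, WT day 5, KO day 5, KO day 3, and neighbours in that order did not overlap for Cd5 and Cd6. The WT groups of Cd5 and Cd6 nearly met, however. The lowest WT day 3 and highest WT day 5 libraries held 44.3 and 44.0 CPM of Cd5, and 27.70 and 27.69 CPM of Cd6. The WT day differences of Cd5 and Cd6 were not called by limma (adjusted p 0.659 and 0.371). For Cd2 the WT day 5 and KO day 5 libraries overlapped. All neighbours in the order of Lck overlapped.

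Across the 12 libraries, which share the 4 groups, the levels on log2(CPM + 1) fell into sets described here by Pearson's r. Cd3d, Cd3e and Cd3g had r of 0.95 to 0.96 with each other, and Cd247 of 0.81 to 0.88 with them. Cd2, Cd5 and Cd6 had r of 0.89 to 0.90 with each other. Cd8b1 was most like Cd2 (r = 0.85), with r = 0.65 to Cd8a. Outside the members, Nsa2 was most like Cd3d (r = 0.98), Hdac4, a histone deacetylase, like Cd3e (r = 0.97), Fau like Cd3g (r = 0.99) and Arhgef7 like Cd247 (r = 0.98). Rpl24 and Il7r, the IL-7 receptor alpha chain, were most like Cd8a (r = 0.90 and 0.88), Kpna1 like Cd8b1 (r = 0.90), Ice1 like Lck (r = 0.92) and Zkscan1 like Cd2 (r = 0.95). Ptpn6 was most like Cd5 (r = 0.94) and Ptpn1 most like Cd6 (r = 0.92), both of them protein tyrosine phosphatases.

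Genes that act beside the members were described from lists that were chosen with earlier results of these data known. Their counts of calls are to be read beside the shares over all genes in the fit as reported. These were 16.5% higher and 22.9% lower at day 5, 11.2% higher and 7.23% lower at day 3, and 4.01% positive and 8.85% negative in the interaction. Among 3 measured receptor partners, Fcer1g, an ITAM adaptor related to the zeta chain, rose at both days. It averaged 21.4 ± 7.95 CPM in KO day 5 and 0.764 ± 0.351 CPM in WT day 5 libraries (adjusted p 2.67e-07), and 6.16 ± 0.868 CPM in KO day 3 and 0.554 ± 0.959 CPM in WT day 3 libraries (adjusted p 0.000224). Its WT levels rest on 4 reads at day 5 and 3 reads at day 3. Trat1, the TRIM adaptor, was not called at either day (adjusted p 0.303 at day 5 and 0.559 at day 3), and neither was Ptcra.

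Of 18 kinases, adaptors and effectors close to the receptor, 7 rose and 1 fell in KO at day 5 (median 0.27), and 2 rose and 3 fell at day 3 (median -0.05). The day 5 rises numbered 11 under median-of-ratios or TMM scaling and by edgeR and 12 under quantile normalization, but 3 with no trend and 4 with only the libraries compared or without the second WT day 5 library. Higher calls over all genes at day 5 also grew with scaling, from 1885 as reported to 2301 by median of ratios and 2242 by TMM. The 5 calls at day 3 became 2 or 3 without WT day 3 library 2 or 3 or KO day 3 library 1 or 3, with no trend or under quantile normalization. Txk, a Tec family kinase, rose at both days, by 1.03 at day 5 (adjusted p 0.000252) and 1.09 at day 3 (adjusted p 0.000397). Skap1, an adaptor of integrin activation, rose by 0.59 at day 5 (adjusted p 0.000184) and 0.38 at day 3 (adjusted p 0.0188). Plcg1, the phospholipase that starts calcium signalling, fell at both days (-0.50, adjusted p 0.00264 at day 5, and -0.69, adjusted p 0.000357 at day 3). By DESeq2 its day 5 fall was not called (adjusted p 0.0639). Themis and Fyb fell at day 3 (-0.31, adjusted p 0.0209, and -0.33, adjusted p 0.0338), and these 2 falls and the day 3 rise of Skap1 were lost in 5, 10 and 4 of 25 alternatives. Fyb, an adaptor of integrin activation, rose at day 5 (0.34, adjusted p 0.0153, lost in 3 of 25 alternatives). Without the second KO day 5 library this rise was not called (adjusted p 0.068). The calls of Fyb at the days had opposite directions in the fit as reported, but neither held in every alternative. The interaction was called for Fyb (0.67, adjusted p 0.00467) and Fyn, the other Src family kinase of T cells (0.50, adjusted p 0.0178, lost in 3 of 24 alternatives, without KO day 3 library 2 or WT day 5 library 2 among them). Zap70, the kinase that binds phosphorylated ITAMs, had 0.28 at day 5 (adjusted p 0.119) and 0.04 at day 3 (adjusted p 0.893), and the scaffold Lat had -0.12 (adjusted p 0.269) and -0.20 (adjusted p 0.0965) at these days.

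Of 19 negative regulators of the proximal signal, 7 rose and 5 fell in KO at day 5 (median -0.14), and 4 rose and 5 fell at day 3 (median -0.05). Without the second WT day 3 library the day 3 counts were 3 and 2. Ptpn6, the phosphatase SHP-1, fell at both days (-0.91, adjusted p 2.67e-06 at day 5, and -1.29, adjusted p 7.32e-08 at day 3). It averaged 85.8 ± 16.1 CPM in KO and 161 ± 8.99 CPM in WT libraries at day 5, and 63.7 ± 6.28 CPM in KO and 157 ± 4.40 CPM in WT libraries at day 3. Ubash3b, the phosphatase Sts-1, rose at both days (1.75, adjusted p 5.28e-11 at day 5, and 1.01, adjusted p 5.27e-07 at day 3). Dgka, a diacylglycerol kinase, rose at day 5 (1.10, adjusted p 1.39e-06) and had -0.23 at day 3 (adjusted p 0.265). Pag1, the adaptor that recruits the Lck inhibitor Csk, rose at day 3 (1.43, adjusted p 2.16e-05) and had -0.14 at day 5 (adjusted p 0.614). Csk, Ubash3a and Sla fell at both days (-0.41, -0.45 and -0.57 at day 5, adjusted p 0.00389, 0.00566 and 0.00675, and -0.42, -0.56 and -0.59 at day 3, adjusted p 0.00798, 0.00267 and 0.0119), Cbl fell at day 5 (-0.79, adjusted p 0.00126) and Dgkz at day 3 (-0.49, adjusted p 0.0111). The day 3 falls of Csk, Dgkz and Sla were lost in 3, 3 and 2 of 25 alternatives. By DESeq2 the day 5 falls of Csk and Ubash3a were not called (adjusted p 0.0561 and 0.103), and 3 genes of the list were called lower. Ptprj rose at both days (1.11, adjusted p 7.19e-05 at day 5, and 0.93, adjusted p 0.00136 at day 3), and the day 3 rise of Dok2 (0.43, adjusted p 0.0489) was lost in 13 of 25 alternatives. The interaction was positive for Lax1 (1.39, adjusted p 0.00409), Dgka (1.33, adjusted p 8.1e-05), Cblb (1.03, adjusted p 0.000414) and Ubash3b (0.73, adjusted p 0.00237), and negative for Pag1 (-1.57, adjusted p 0.000608).

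Of 12 genes of the CD2 and SLAM family and ligands of CD2, CD5 and CD6, 11 were tested, and 4 rose and 3 fell in KO at day 5 (median -0.09), and 3 rose and 1 fell at day 3 (median 0.13). The day 3 counts were 2 and 0 without WT day 3 library 1 or 2 or KO day 3 library 2 or 3, and with no trend. Alcam, whose product binds CD6, rose at both days, where Cd6 itself fell. It averaged 74.4 ± 6.55 CPM in KO and 32.4 ± 2.87 CPM in WT libraries at day 5 (1.18, adjusted p 5.01e-07), and 66.9 ± 9.68 CPM in KO and 44.1 ± 2.53 CPM in WT libraries at day 3 (0.58, adjusted p 0.0043). Cd48, whose product binds CD2 in the mouse, had -0.43 at day 5 (adjusted p 0.046, but 0.312 without the second KO day 5 library) and 0.06 at day 3 (adjusted p 0.861). Cd244a, the SLAM family receptor 2B4, rose at both days (1.50, adjusted p 0.0002 at day 5, and 1.92, adjusted p 4.19e-05 at day 3), as did Slamf7 (0.26, adjusted p 0.0325 at day 5, and 0.33, adjusted p 0.0192 at day 3, lost in 6 and 5 of 25 alternatives), and Cd84 rose at day 5 (0.67, adjusted p 0.00191). Ly9 fell at both days (-0.76, adjusted p 0.000315 at day 5, and -0.43, adjusted p 0.0489 at day 3, the second lost in 16 of 25 alternatives). Cd2ap, whose product binds the tail of CD2, fell at day 5 (-0.45, adjusted p 0.00597, but 0.126 by DESeq2). The single interaction call, for Alcam (0.59, adjusted p 0.0459), was lost in 12 of 24 alternatives.

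Of 17 transcription factors known to act on the Cd4, Cd8 or Cd3 genes, 4 rose and 3 fell in KO at day 5 (median 0.14), and 2 rose and 4 fell at day 3. At day 5 the count was 9 and 3 under median-of-ratios, TMM or quantile scaling and by edgeR and DESeq2. The higher calls over all genes also grew under scaling, from 1885 to 2301 by median of ratios and 2242 by TMM. Lef1 and Satb1 rose at day 5 (1.18, adjusted p 3.94e-08, and 0.80, adjusted p 2.48e-06), as did Tcf7, which encodes TCF-1 (0.61, adjusted p 0.0102, but 0.0675 without the second WT day 5 library), and Elf1, an ETS factor (0.36, adjusted p 0.00279). Tcf3, Cbfb and Patz1 fell at day 5 (-0.71, adjusted p 1.71e-05, -1.08, adjusted p 0.000432, and -0.76, adjusted p 0.00622). At day 3 Tcf7 fell (-0.94, adjusted p 0.000805), with 16.4 ± 3.47 CPM in KO and 32.2 ± 3.69 CPM in WT libraries, as did Tcf3 (-0.76, adjusted p 2.92e-05), Bcl11b (-0.45, adjusted p 0.000284) and Ets1 (-0.31, adjusted p 0.0219), the last lost in 5 of 25 alternatives. Gata3 rose at day 3 (0.66, adjusted p 0.00503), as did Tcf12 (0.39, adjusted p 0.0499, lost in 12 of 25 alternatives). The interaction was positive for Tcf7 (1.55, adjusted p 0.000295), Lef1 (0.95, adjusted p 0.000387), Satb1 (0.64, adjusted p 0.00599), Ets1 (0.49, adjusted p 0.0153) and Bcl11b (0.43, adjusted p 0.0123), 5 calls that became 2 with no trend. Tcf7, like Cd8a, was called in opposite directions at the days. Runx3, which acts on Cd8 in CD8 T cells, was not called (0.13, adjusted p 0.211 at day 5, and 0.02, adjusted p 0.92 at day 3).

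**Figure D5:**
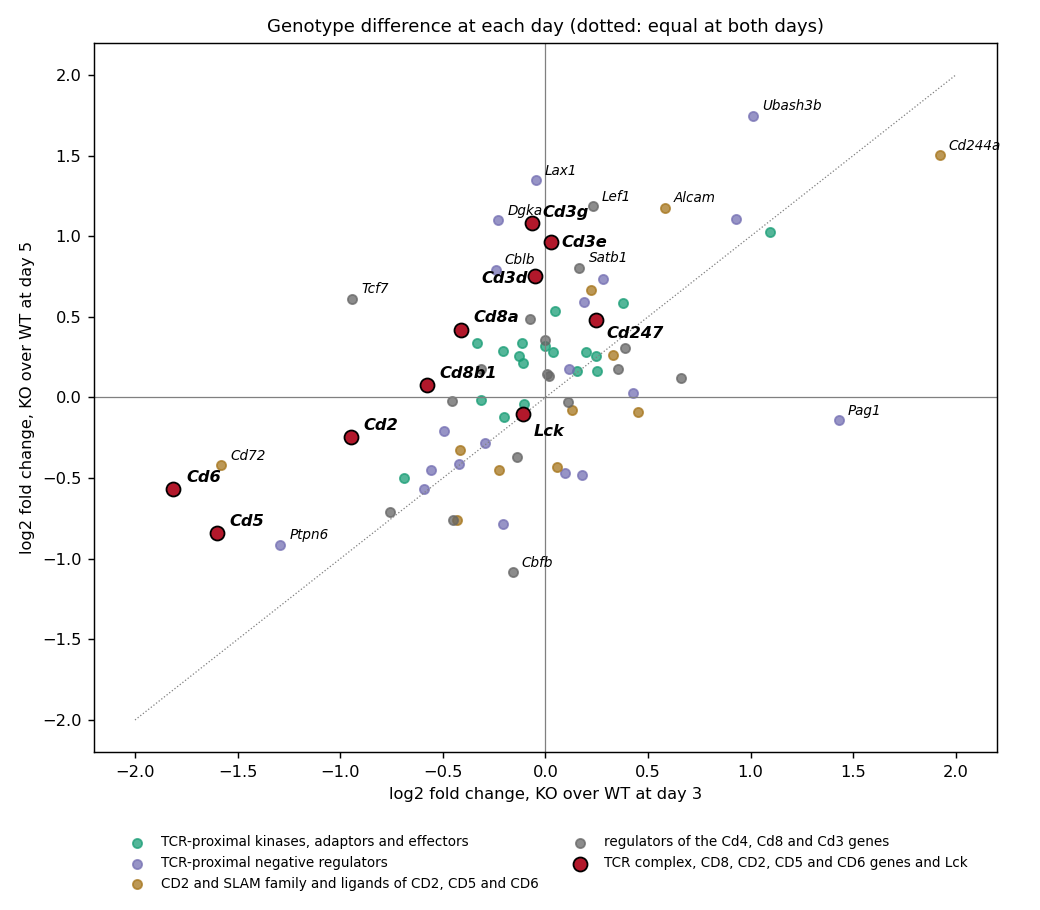
Log2 fold change of KO over WT at day 3 (horizontal) and day 5 (vertical), on log2(CPM + 1), for the 10 genes (large red points) and for genes of 4 lists of the pathway (small points, some named). Points above the dotted line have a higher value at day 5 than at day 3, as Cd3g (1.08 at day 5 and -0.07 at day 3) and Cd6 (-0.57 and -1.81) do.

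Markers of other cells were read beside these results. Cd4 averaged at most 0.563 CPM in any group, Ms4a1 and Ncr1 had 0 reads in all 12 libraries, which allows up to 0.632 CPM in KO day 5, 0.569 CPM in WT day 5, 0.527 CPM in KO day 3 and 0.571 CPM in WT day 3 libraries (3 reads over a group, counting error only), and Lyz2 had 1 read in all. Cd79b and Ebf1, the 2 tested B cell markers, had reads in every group and were not called between the genotypes at either day. Cd79b averaged 3.58 to 5.14 CPM over the groups, and Ebf1 0.571 to 2.65 CPM. Some other markers moved with genotype. Of 7 tested myeloid and dendritic markers, 6 rose in KO at day 5 and 2 at day 3, and the summed level of the 11 listed ranged from 1108 to 1503 CPM in KO and from 786 to 850 CPM in WT libraries at day 5. At day 3 that sum ranged from 505 to 604 CPM in KO and from 504 to 529 CPM in WT libraries. Most of it was Ly6c2, which activated CD8 T cells also express, and Cd74 averaged 55.2 CPM in KO day 5 and 0.188 CPM in WT day 5 libraries. In the same groups Cd68 averaged 12.2 and 3.78 CPM (adjusted p 0.00302), and Itgam 6.97 and 0.383 CPM, on 33 and 2 reads. Csf1r had 18 reads in KO day 3 and 0 in WT day 3 libraries and was not called there (adjusted p 0.0834). Of 3 tested NK, gamma delta and innate-like T cell markers, 2 rose in KO at day 5 and 1 at day 3. The 2 at day 5 were Klrb1c and Fcer1g, given above as a receptor partner, and the 1 at day 3 was Fcer1g. Klrb1c averaged 13.3 CPM in KO day 5 and 0.761 CPM in WT day 5 libraries. Tyrobp was not called, with 0.848 and 0.372 CPM in these groups, and 1.21 and 1.72 CPM in KO and WT day 3 libraries. Trdc had 0 reads in every group, but so had all 494 immunoglobulin and receptor chain genes, so its 0 says nothing about gamma delta cells. Zbtb16 and Sox13 had at most 1 and 2 reads in any group. Of 5 tested CD4 T cell markers 1 rose and 1 fell at each day. Icos, which activated CD8 T cells also express, rose at both days, Cd40lg fell at day 5 (0 CPM in KO and 1.33 CPM in WT libraries on average, adjusted p 0.0194) and Foxp3 fell at day 3 (0.182 CPM in KO and 3.64 CPM in WT libraries, adjusted p 0.0178). These 2 falls rest on few reads, 0 in KO and 7 in WT for Cd40lg, and 1 in KO and 19 in WT for Foxp3. The 8 erythroid and platelet markers summed to 18.8 to 39.2 CPM in KO day 5, 10.2 to 20.4 CPM in WT day 5, 15.9 to 57.4 CPM in KO day 3 and 5.33 to 16.6 CPM in WT day 3 libraries. Of 6 tested, 1 rose in KO at day 5 and 2 at day 3, and 0 fell. The 2 at day 3 were Hba-a1 (2.75, adjusted p 2.92e-05) and Hba-a2 (1.42, adjusted p 0.0144). The part of other cells in the values of the 10 genes was not tested.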

How the data were processed

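Messenger RNA of 12 libraries was read as one value per gene. The deposited values, named TPM, were treated as CPM. The columns add up to 1000000, and 100% of their values are whole numbers of reads times a step (tolerance 0.001 read), unlike values scaled by length. The design table assumed TPM, and its test was kept. Libraries were QuantSeq 3′ mRNA libraries from 500 ng of total RNA, per the labels' protocols. Day 5 follows the titles, although the culture times in the labels sum to a later day. The submitters' processing notes name GRCm39 and mm10. The sources used here do not give the aligner or the use of strand. Of 25655 identifiers, 25600 were in GENCODE M21, the source of coordinates.

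Genes with at least 1 CPM in at least 3 libraries (11417 genes, 14238 not tested) were fitted on log2(CPM + 1) by limma 3.58.1 (R 4.3.3), using a mean for each group, a trend and 21.1 degrees of freedom. Two-sided p-values were adjusted over all genes tested (Benjamini-Hochberg). Whole reads recovered from the CPM were tested with edgeR 4.0.16 and DESeq2 1.42.0 as alternatives, beside other pseudocounts, filters, scalings, moderation and left-out libraries. The script was tested on simulated data. Same-numbered libraries did not deviate together, which does not settle whether they are paired. The members and lists were chosen with earlier results of these data known. Named are all members, of each list the 3 smallest adjusted p of a genotype comparison, all members of counts of 5 or fewer, the most alike genes, and Ezh2. Zap70, Lat, Trat1, Ptcra and Runx3, and the levels given in full beside the lists, were chosen after their values were seen. RefSeq windows were found for 7 of 10 members, not for Cd8b1, Cd2 and Cd6.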

Additional observations from a re-analysis of the deposited data

Results flagged for a closer look

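For 7 of the 10 genes the interaction of genotype and day was called by limma's test over all genes, each time positive. Over all genes tested, 4.01% were called positive and 8.85% negative. The KO over WT difference at day 5 minus that at day 3, on the log2 scale, was 1.25 for Cd6, 1.15 for Cd3g, 0.94 for Cd3e, 0.83 for Cd8a, 0.81 for Cd3d, 0.70 for Cd2 and 0.65 for Cd8b1. Cd8a is the gene among them that was called in opposite directions at the days. Without the second KO day 5 library these values were 1.23, 1.03, 0.80, 0.79, 0.81, 0.54 and 0.42 in the same order, and all 7 were called. Cd8b1 lost its call in 3 of 24 alternatives (adjusted p up to 0.14) and Cd2 in 1 (0.0502).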

How the results depend on the processing

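Over 1240 recomputed values of single members, 1151 kept their direction and their side of the threshold, 65 lost a call, 11 gained one and 13 changed sign. Of 31 member calls, 21 held in every alternative. The count at day 3 was 3 without a trend in the moderation, against 5. The count of day 5 against day 3 in WT was 1, against 3, with a pseudocount of 0.1, no filter, median-of-ratios or TMM scaling, no trend, edgeR or DESeq2. It was 5 with only the libraries compared, and 1 to 5 with a library left out. The counts of the other comparisons stayed within 1.5 times. The sign changes were all of differences that were not called. At day 3, Cd3d had 0.00168 under quantile normalization and -0.202 to 0.0642 with a library left out, Cd3e -0.112 to 0.178 and Cd3g -0.136 to 0.00198. At day 5, Cd8b1 had -0.156 to 0.215 with a library left out, and Lck 0.00622 by median of ratios, 0.0315 by quantile normalization and 0.00597 by DESeq2. The interaction of Lck ranged from -0.0226 to 0.0432 with a library left out. The causes were not tested. With the replicate block, 6 members were called at day 5, 5 at day 3, 9 over the days in KO, 3 in WT and 7 in the interaction, and the block ended the call of Cd6 at day 5 and no other. The labels do not say whether the numbers pair the libraries. Same-numbered deviations had r between -0.014 and 0.039, which cannot settle it, since much of these deviations may be counting error. The alternatives for the pathway lists were chosen after seeing the data. Depth limits Cd5 and Cd6 most.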
